A study of Homo sapiens with 12 samples.

Results

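The nuclear-encoded genes of the respiratory chain were examined in COV362 and PEO1, a pair of established cell lines from human high-grade serous ovarian carcinomas. Genes were chosen by name, from the NDUFA, NDUFB, NDUFC, NDUFS, NDUFV, UQCR, COX4 to COX8 and ATP5 families together with SDHA, SDHB, SDHC, SDHD and CYC1. Of 26485 genes in the table, 95 met the rule, and 8 more rows with a hyphen or a pseudogene ending were dropped. The 95 comprised 37 genes of complex I, 4 of complex II, 10 of complex III, 19 of complex IV, 18 of complex V and 7 assembly factors of complex I. NDUFA4 and NDUFA4L2 were counted with complex IV, where the NDUFA4 protein is known to sit. Complex V was grouped by the older ATP5 names of the table, so it also holds ATP5S and ATP5SL, which RefSeq calls DMAC2L and DMAC2.

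The groups were PEO1 with 20 nM prexasertib, COV362 with 20 nM prexasertib, PEO1 with DMSO and COV362 with DMSO, with 3 libraries each, lettered A, B and C. Prexasertib inhibits the checkpoint kinases CHK1 and CHK2, and DMSO is its solvent. Both lines are labelled as parental and were grown in the same medium with insulin. The labels give neither the treatment time nor whether the libraries came from separate cultures, so the p-values measure only the spread between these samples. PAX8, a transcription factor that marks this tumour type, was at 75.6 to 156 CPM (counts scaled by library size) over the 12 libraries, while CDH1 was at most 0.679 CPM in COV362 and at least 94.5 CPM in PEO1. WT1 was at 3.68 to 9.84 CPM over the 12 libraries. EPCAM was at 418 ± 35.2 CPM in PEO1 DMSO and 11.9 ± 1.1 CPM in COV362 DMSO, and MUC16 at 4.87 ± 0.697 and 49.6 ± 19.8 CPM. The leukocyte gene PTPRC and the fibroblast gene DCN were at or near 0 in all libraries, as were CD3E, LYZ and COL3A1. Other genes of the same marker lists were not, with CD68 (blood) at 30.8 to 59.6 CPM and COL1A1 (fibroblast) at 3.52 to 7.17 CPM.

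The chain passes electrons from NADH through complex I, or from succinate through complex II, to ubiquinone, then through complex III and cytochrome c to complex IV, which reduces oxygen. Complexes I, III and IV pump protons across the inner mitochondrial membrane, and complex V, the ATP synthase, lets them return through its membrane ring of c subunits to drive ATP synthesis in its F1 head. Complex II is encoded by nuclear genes alone, while the other complexes also hold subunits made from mitochondrial DNA. None of those was found by name among the genes of the table, so they could not be analysed here.

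Nuclear respiratory genes are known for promoters with sites of NRF1, of the ETS factor GABP and of YY1. Promoter sequences of RefSeq (GRCh38.p14, 250 bases before to 50 after the gene start) matched 75 of the 95 genes. They were searched on both strands for the NRF1 letters (GCGCA, any base, then GCGC), the ETS letters (CCGGAAG) and the YY1 letters (AAGATGGC), and in the sequences printed below no matches overlap. At least 1 of these motifs stood in 52% of the 75 promoters, against 30.7% of 11253 promoters of other tested genes and 17.9% of all 27305 promoters in the table. The NRF1 letters were found in 22.7% of the respiratory promoters, 11.2% of the other tested genes and 6.28% of all promoters. The ETS letters were in 26.7%, 18.5% and 10.7%, and the YY1 letters in 14.7%, 5.13% and 3.03%, in the same order of sets. The 5 promoters below belong to genes whose transcripts differed with prexasertib or between the lines, and capitals mark the motif letters. SDHA (chr5:218070-218369, plus strand) holds the NRF1 letters 4 times, ATP5C1 (chr10:7787927-7788226, plus strand) once, COX5B (chr2:97645812-97646111, plus strand) the ETS letters 2 times, NDUFAF4 (chr6:96897842-96898141, minus strand) the ETS letters once, and ATP5J (chr21:25735005-25735304, minus strand) the YY1 and the ETS letters once each.
SDHA promoter: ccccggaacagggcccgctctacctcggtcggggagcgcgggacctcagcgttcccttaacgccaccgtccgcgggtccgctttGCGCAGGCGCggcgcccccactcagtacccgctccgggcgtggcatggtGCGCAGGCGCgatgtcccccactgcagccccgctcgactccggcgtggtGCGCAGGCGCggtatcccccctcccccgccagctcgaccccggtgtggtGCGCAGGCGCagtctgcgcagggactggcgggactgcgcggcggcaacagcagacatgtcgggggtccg
ATP5C1 promoter: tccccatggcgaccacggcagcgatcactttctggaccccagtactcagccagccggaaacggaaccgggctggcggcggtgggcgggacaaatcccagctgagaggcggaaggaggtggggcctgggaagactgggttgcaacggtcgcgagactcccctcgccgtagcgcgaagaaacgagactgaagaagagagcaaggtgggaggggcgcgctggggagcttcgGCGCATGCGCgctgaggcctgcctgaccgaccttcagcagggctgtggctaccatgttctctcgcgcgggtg
COX5B promoter: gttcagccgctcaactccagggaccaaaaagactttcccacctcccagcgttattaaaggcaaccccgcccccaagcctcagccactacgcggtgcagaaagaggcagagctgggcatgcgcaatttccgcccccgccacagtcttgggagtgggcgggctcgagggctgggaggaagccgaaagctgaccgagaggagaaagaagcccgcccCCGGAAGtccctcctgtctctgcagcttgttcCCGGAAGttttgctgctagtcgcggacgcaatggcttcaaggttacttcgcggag
NDUFAF4 promoter: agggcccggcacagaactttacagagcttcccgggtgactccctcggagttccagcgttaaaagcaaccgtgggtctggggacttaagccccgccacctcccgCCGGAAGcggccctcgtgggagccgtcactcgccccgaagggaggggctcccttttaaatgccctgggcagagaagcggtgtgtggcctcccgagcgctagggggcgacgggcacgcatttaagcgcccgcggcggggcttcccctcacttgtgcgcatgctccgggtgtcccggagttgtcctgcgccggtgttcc
ATP5J promoter: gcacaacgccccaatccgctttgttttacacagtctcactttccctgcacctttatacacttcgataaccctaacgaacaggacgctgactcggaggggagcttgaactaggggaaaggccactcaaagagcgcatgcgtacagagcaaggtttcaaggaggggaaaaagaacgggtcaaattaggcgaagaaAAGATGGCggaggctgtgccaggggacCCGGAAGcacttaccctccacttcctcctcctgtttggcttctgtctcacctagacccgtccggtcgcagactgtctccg

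Of the 8 genes with a promoter sequence that were lower in PEO1 with prexasertib, 5 held a motif, and of the 3 that were higher, 1 did, against 53.5% of the 71 tested members with a sequence. A match of letters is no evidence that a factor binds there.

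Respiratory transcripts were abundant in both lines. Over the 12 libraries the median tested member stood at 201 TPM (counts per exon length, scaled to the same total in every library), against 11.6 TPM for all 14498 tested genes, and 85 of 88 tested members lay above that value. The 95 genes held 1.15% to 1.68% of all counts. COX7C, a small complex IV subunit, led in PEO1 with 2070 ± 107 TPM under prexasertib and 2020 ± 181 TPM under DMSO (SD, n = 3 each). ATP5B, the catalytic β subunit of complex V, led in COV362 with 2010 ± 321 TPM under prexasertib and 1860 ± 206 TPM under DMSO. The next there was COX6B1 of complex IV, with 1490 ± 281 TPM under prexasertib and 1430 ± 241 TPM under DMSO, and the libraries of this pair of genes overlapped. UQCRH, the acidic hinge protein of complex III, reached 1270 ± 52.5 TPM in PEO1 with prexasertib and 1160 ± 65 TPM in PEO1 with DMSO.

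The assembly factors, which help build complex I and leave it, were far lower. Their median was 29.1 TPM in PEO1 and 22.5 TPM in COV362 with prexasertib, and 25 TPM in PEO1 and 19.8 TPM in COV362 with DMSO. Among the complex I subunits NDUFC2, of the membrane arm, had the lowest mean in every group but PEO1 with prexasertib. It stood at 9.54 to 14.5 TPM over the libraries of the groups where it was lowest. NDUFC2 shares 31.7% of its exon length with a readthrough row listed at 0, so its level is uncertain. In PEO1 with prexasertib the iron-sulfur subunit NDUFS7 was lowest with 9.13 TPM. Alternative subunits known from other tissues were almost silent. COX6A2 and COX7B2 had 0 counts in every library, and COX4I2, COX7A1, COX8C, COX6B2 and ATP5L2 had 0 to 7 counts each. These 7 genes failed the filter on low counts, so 88 of 95 were tested. NDUFA4L2, the hypoxia-linked relative of NDUFA4, passed it at a mean of 0.411 CPM in PEO1 and 1.04 CPM in COV362 with prexasertib, against 0.309 CPM in PEO1 and 0.287 CPM in COV362 with DMSO.

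Most members are short, and this touched every comparison. Their median exon length was 1086.5 bases, against 3300 over all tested genes, and the A libraries held more short-gene counts in each group. In the A libraries 74 to 79 of the 88 members lay above their group mean, with a median excess of 0.19 to 0.32 on the log2 scale. In the B and C libraries 7 to 39 did. The libraries held 9390790 to 18262805 counts, and results without the A libraries stand beside each comparison.

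Prexasertib left no called change among the respiratory genes of COV362. Of the 88 tested, 0 were called in edgeR's quasi-likelihood test with p-values adjusted after Benjamini and Hochberg (BH) and a threshold of 0.05, and 0.828% of all tested genes were. The median change was 0.07 on the log2 scale, against −0.01 for all tested genes. Leaving NDUFA4L2 aside, the changes of the other 87 ran from −0.37 to 0.41, with a median standard error (SE) of 0.21. DESeq2 and limma-voom also called 0, of backgrounds of 3.68% and 0.904%. At an unadjusted p under 0.05 there was 1 higher and 0 lower, where 917 and 912 of all 14498 tested genes were.

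The member with the lowest p was NDUFA4L2, at 1.06, 0.987 and 1.06 CPM in COV362 with prexasertib A, B and C, against 0, 0.274 and 0.587 CPM with DMSO. The groups did not overlap, but the counts were few and the adjusted p in edgeR's quasi-likelihood test with BH adjustment was 0.374. SDHC, a membrane anchor of complex II, had 187, 234 and 230 CPM with prexasertib against 242, 247 and 241 CPM with DMSO. Its libraries did not overlap either, with a log2 fold change of −0.17 ± 0.12 (SE) and an adjusted p of 0.635 in the same test. NDUFV3, an accessory subunit beside the NADH site of complex I, was at 0.27 ± 0.21, UQCRHL at 0.17 ± 0.18, ATP5S at −0.37 ± 0.22 and NDUFAF4 at 0.28 ± 0.19, none of them called. UQCRHL is an intronless copy of UQCRH, so its counts are uncertain.

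The letters met the pairing criterion in COV362, although C did not correlate best with its own letter. With the letter as a block 0 members were again called, where 9.65% of all genes were. Without the A libraries 0 were called of a background of 2.25%. A correction for exon length and GC content also gave 0, of a background of 3.5%, and the median turned to −0.05, so its direction in COV362 depends on that choice. Single libraries moved it too, to 0.24 without DMSO A and −0.11 without prexasertib A. The correction and the block together gave 2 higher and 8 lower, of a background of 12.5%.

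**Figure D1:**
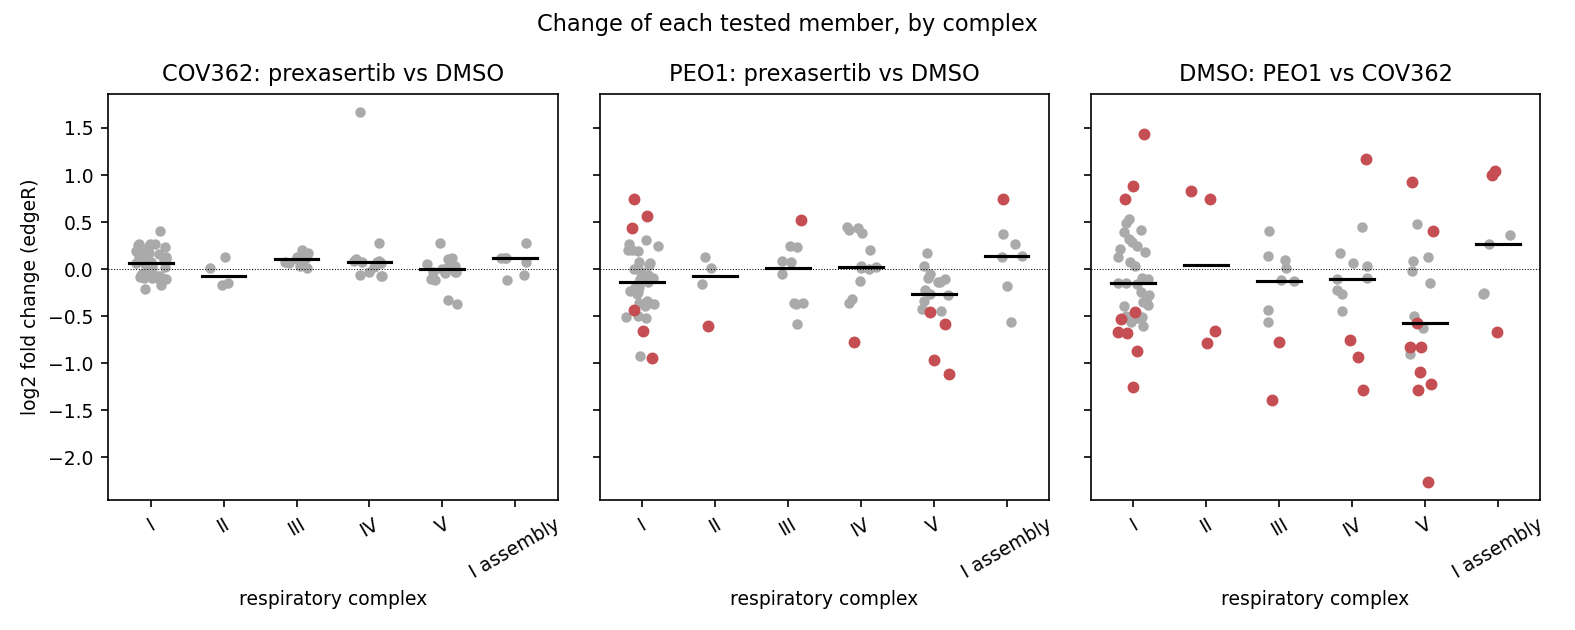
Log2 fold change of each of the 88 tested members, by complex, for prexasertib against DMSO in COV362 (left) and PEO1 (middle) and for PEO1 DMSO against COV362 DMSO (right). Red points passed an adjusted p under 0.05, grey points did not, and bars are medians. No point is red in COV362, 14 are in PEO1, and complex V has the lowest median in the PEO1 and line panels (−0.26 and −0.57). With a correction for length and GC content, not drawn, complex II was lowest in PEO1 (−0.22, against −0.18 for complex V).

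In PEO1, prexasertib lowered 9 respiratory genes and raised 5 of the 88 tested. The called share of all genes was 29.3%, of which 14.7% were higher and 14.6% lower, so these counts are no excess over the background. The genes that fell included 4 of the 5 F1 head subunits of complex V (ATP5A1, ATP5C1, ATP5D, ATP5E), the catalytic subunit of complex II (SDHA), COX5B of complex IV, and NDUFB7, NDUFA3 and NDUFA10 of complex I. Those that rose were NDUFC2, NDUFA5 and NDUFB3 of complex I, UQCRB of complex III and the assembly factor NDUFAF4. The median over the 88 was −0.10, against 0.01 over all tested genes. With letters A, B and C matched it was −0.07, −0.29 and 0.01. With the length and GC correction described below it was −0.05, against −0.02 over all tested genes.

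In the F1 head, α and β subunits form a hexamer around a central stalk of γ, δ and ε. ATP5A1 (chr18:46084144-46104233, minus strand, coordinates as deposited on hg38), which encodes α, had 613, 592 and 585 CPM in PEO1 with prexasertib against 878, 880 and 712 CPM with DMSO. All treated libraries lay below all DMSO libraries, with a log2 fold change of −0.46 ± 0.13 and an adjusted p of 0.0138 by edgeR's quasi-likelihood test and BH. ATP5C1 (chr10:7788130-7807799, plus strand), the rotating γ subunit, had 112, 111 and 111 CPM with prexasertib against 177, 171 and 148 CPM with DMSO. Its change was −0.58 ± 0.12, with an adjusted p of 0.00299 in the same edgeR test.

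ATP5D (chr19:1241750-1244825, plus strand), the δ subunit, was at 7.4, 8.52 and 9.6 CPM with prexasertib against 18.8, 16.2 and 20.3 CPM with DMSO. The groups were far apart, with a change of −1.12 ± 0.32 (edgeR adjusted p = 0.0188). ATP5E (chr20:59028678-59032367, minus strand), the ε subunit, had 8.93, 11.9 and 17.9 CPM with prexasertib against 25.7, 21.0 and 29.3 CPM with DMSO, a change of −0.97 ± 0.29 (edgeR adjusted p = 0.0232). Its exons share 66.3% of their length with the readthrough row SLMO2-ATP5E on the same strand, so its counts are uncertain. The β subunit gene ATP5B (chr12:56638175-56646068, minus strand) was not called, with 1320, 1230 and 1180 CPM under prexasertib against 1280, 1280 and 1090 CPM under DMSO. Its groups overlapped and its change was 0.03 ± 0.12. The grouping by head, stalk and ring was made after the values were seen.

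Of the other parts of complex V, 0 of 4 peripheral stalk genes, 0 of 3 c ring genes and 0 of 3 genes for the e, f and g subunits were called. The complex as a whole sat low, with a median of −0.26 over 17 tested genes and 15 of them below 0. With letters A, B and C matched the median was −0.15, −0.41 and −0.11. With the length and GC correction described below it was −0.18, against −0.22 for the 4 genes of complex II. The summed level of complex V was 6730, 6560 and 6510 TPM in PEO1 with prexasertib A, B and C, against 7540, 7580 and 7010 TPM with DMSO. These groups did not overlap in TPM, but they did in CPM. There the sums were 4240, 3680 and 3750 CPM with prexasertib against 4800, 4550 and 3830 CPM with DMSO. The share of all counts overlapped too. In COV362 the sum was 9160 ± 114 TPM with prexasertib and 9150 ± 339 TPM with DMSO. In bulk RNA a smaller share of cells expressing a gene and less RNA per cell cannot be told apart.

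SDHA (chr5:218223-257082, plus strand), the flavin-bearing catalytic subunit of succinate dehydrogenase, gave the lowest p of all members. It had 238, 213 and 240 CPM in PEO1 with prexasertib against 369, 343 and 340 CPM with DMSO. The change was −0.61 ± 0.11 (edgeR adjusted p = 0.00107), and it was −0.64, −0.69 and −0.50 with letters A, B and C matched. Its 3 partners were not called. The iron-sulfur subunit SDHB was at 0.01 ± 0.11, and the membrane anchors SDHC and SDHD were at −0.16 ± 0.12 and 0.13 ± 0.16. The promoter of SDHA is the one printed above with 4 copies of the NRF1 letters.

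In complex IV, COX5B (chr2:97646058-97648194, plus strand), a matrix-facing structural subunit, was called alone of 13 tested. It had 65.0, 44.2 and 53.8 CPM with prexasertib against 111, 90.0 and 76.9 CPM with DMSO, a change of −0.77 ± 0.27 (edgeR adjusted p = 0.0474). Its groups did not overlap, although each group spanned a wide range. COX4I1, an early-assembling subunit, was at −0.36 ± 0.22, NDUFA4 at 0.42 ± 0.18 and COX7A2L, known for joining complexes III and IV, at 0.20 ± 0.12, none called. In complex III, UQCRB was the called gene of 10, at 325, 256 and 249 CPM with prexasertib against 226, 200 and 154 CPM with DMSO. Its change was 0.52 ± 0.18 (edgeR adjusted p = 0.0454). The catalytic genes CYC1 (cytochrome c1) and UQCRFS1 (the Rieske protein) were at −0.36 ± 0.21 and 0.24 ± 0.16, and the core protein gene UQCRC1 at −0.37 ± 0.18, none called.

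Complex I moved in both directions, with 3 of 37 higher and 3 lower, all among the 30 supernumerary subunits and none among the 7 nuclear core subunits. NDUFA5 (chr7:123536998-123601651, minus strand) had 74.0, 69.6 and 67.4 CPM with prexasertib against 44.8, 51.7 and 46.5 CPM with DMSO. All treated libraries were higher, with a change of 0.56 ± 0.12 (edgeR adjusted p = 0.00352). NDUFC2 had 24.5, 19.6 and 21.2 CPM with prexasertib against 15.7, 13.4 and 9.73 CPM with DMSO, a change of 0.75 ± 0.25 (edgeR adjusted p = 0.0353), and 31.7% of its exon length is shared with the readthrough row NDUFC2-KCTD14, listed at 0. NDUFB7, a subunit on the outer side of the inner membrane, had 23.1, 16.3 and 27.2 CPM with prexasertib against 45.0, 35.7 and 48.1 CPM with DMSO, a change of −0.95 ± 0.31. NDUFA3 and NDUFA10 fell by 0.66 and 0.43 on the log2 scale, and NDUFB3 rose by 0.44. The exons of NDUFA3 are listed on 10 reference sequences with a total length of 3540 bases, so its counts and length are uncertain. The iron-sulfur core gene NDUFS1 was at 0.25 ± 0.23 and NDUFV1, whose product binds NADH, at −0.36 ± 0.19, and NDUFAB1, the acyl carrier protein, at −0.36 ± 0.31. NDUFAF4, the one called assembly factor of 7, had 108, 72.8 and 75.3 CPM with prexasertib against 60.3, 47.8 and 43.8 CPM with DMSO, a change of 0.75 ± 0.18 (edgeR adjusted p = 0.00735). NDUFA10, NDUFB3 and ATP5C1 fall outside the rule for named genes and complete the 14 called.

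**Figure D2:**
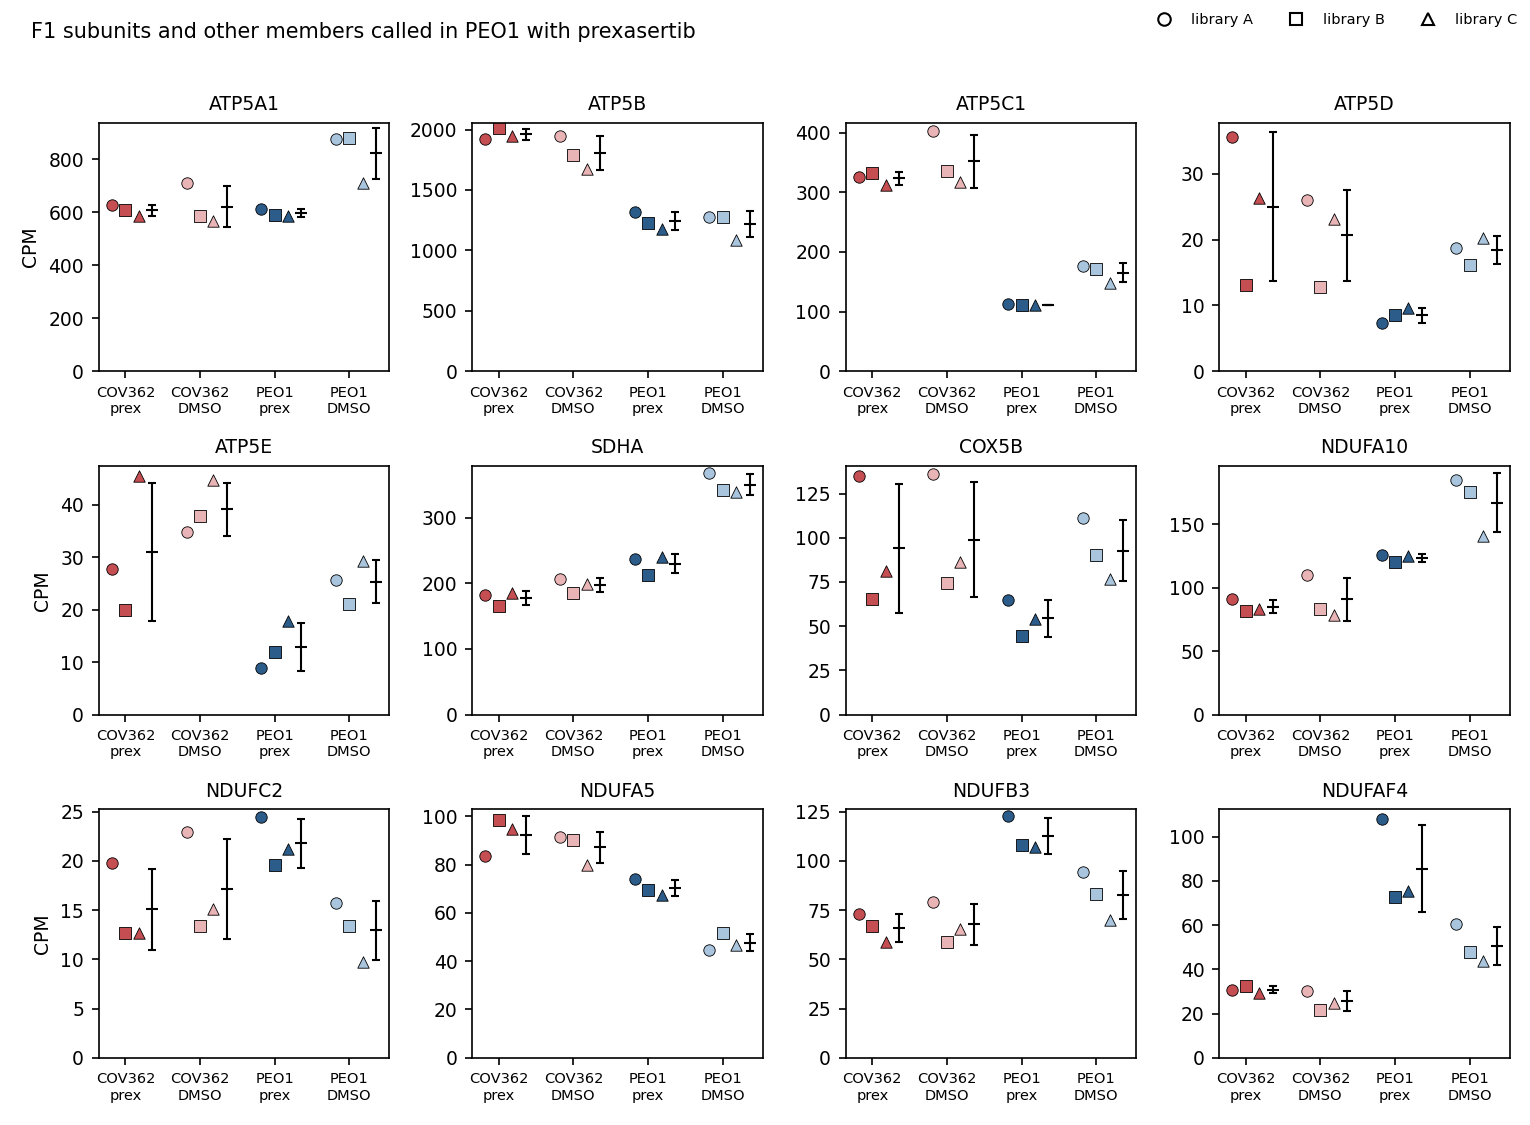
CPM of the 5 F1 subunit genes and of 7 other called members in each library, for COV362 and PEO1 with prexasertib (dark) and DMSO (pale); marker shapes are the letters and bars the mean ± SD of 3 libraries. ATP5A1, ATP5C1, ATP5D and ATP5E lie lower in all PEO1 prexasertib libraries than in all PEO1 DMSO libraries, while those of ATP5B overlap.

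How far these calls rest on single libraries differed between genes. Of the 14, SDHA, ATP5C1, ATP5A1 and NDUFA5 stayed called when any 1 of the 6 PEO1 libraries was left out, with adjusted p of at most 0.00577, 0.0107, 0.0366 and 0.0374 in edgeR. The other 10 lost the call without at least 1 library. ATP5D lost it without prexasertib A (edgeR adjusted p = 0.0532), and NDUFAF4 without prexasertib A or DMSO C (at most 0.0624). ATP5E lost it without prexasertib A or B or DMSO C (at most 0.0746). COX5B lost it without prexasertib B or C or DMSO A or B (at most 0.125), and NDUFB7 and NDUFA3 without prexasertib A or B or DMSO A or C (at most 0.106 and 0.116). NDUFA10 lost it without any library but DMSO C (at most 0.0907), NDUFC2 without any but DMSO A (at most 0.172), and UQCRB and NDUFB3 without any of the 6 (at most 0.24 and 0.232). All 14 kept their sign in these fits. The counts fell to between 1 and 3 higher and between 4 and 8 lower, of a background of 20.3% to 22.7%. The median moved furthest without prexasertib A (−0.27). Without the A libraries as a whole, 8 members were higher and 13 lower, of a background of 33.4%, and 12 of the 14 were among them, the exceptions being NDUFB7 and ATP5E.

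The PEO1 change also followed base composition. Across the 88 members, the Spearman correlation of the log2 fold change with transcript GC content was −0.50, and across all genes with a GC value it was −0.43, as a description of these libraries. The direction was the same with letters A, B and C matched (−0.57, −0.52 and −0.43 over members). In COV362 it was 0.43 over members and 0.20 over all genes, but with letters A, B and C matched it was 0.59, −0.096 and 0.14 over members and 0.30, 0.0028 and 0.11 over all genes, so the trend there was largest in the A pair and was not seen in the B pair. The 5 genes that rose in PEO1 had a median GC content of 38.3%, the 9 that fell 52%, and the 74 others 47.8%. With a correction for exon length and GC content, chosen after the data were seen, 4 members were higher and 17 lower, of a background of 35.1%, and 8 of the 14 calls remained. Those were SDHA (−0.43, adjusted p = 0.000492 in edgeR), ATP5C1 (−0.72), ATP5A1 (−0.58), ATP5E (−1.27), COX5B (−0.71), NDUFA10 (−0.57), NDUFC2 (0.63) and NDUFB3 (0.30). ATP5D, with a GC content of 69.6%, came to −0.27 (edgeR adjusted p = 0.239), NDUFB7 to −0.36 (0.161), NDUFA3 to −0.45 (0.057), NDUFA5 to 0.09 (0.753), UQCRB to 0.14 (0.738) and NDUFAF4 to 0.41 (0.11). Of the members not called, NDUFV1, CYC1 and UQCRC1 turned to 0.03, 0.14 and 0.04 under the correction. Whether the trend arose in the cells or in the libraries was not tested.

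**Figure D3:**
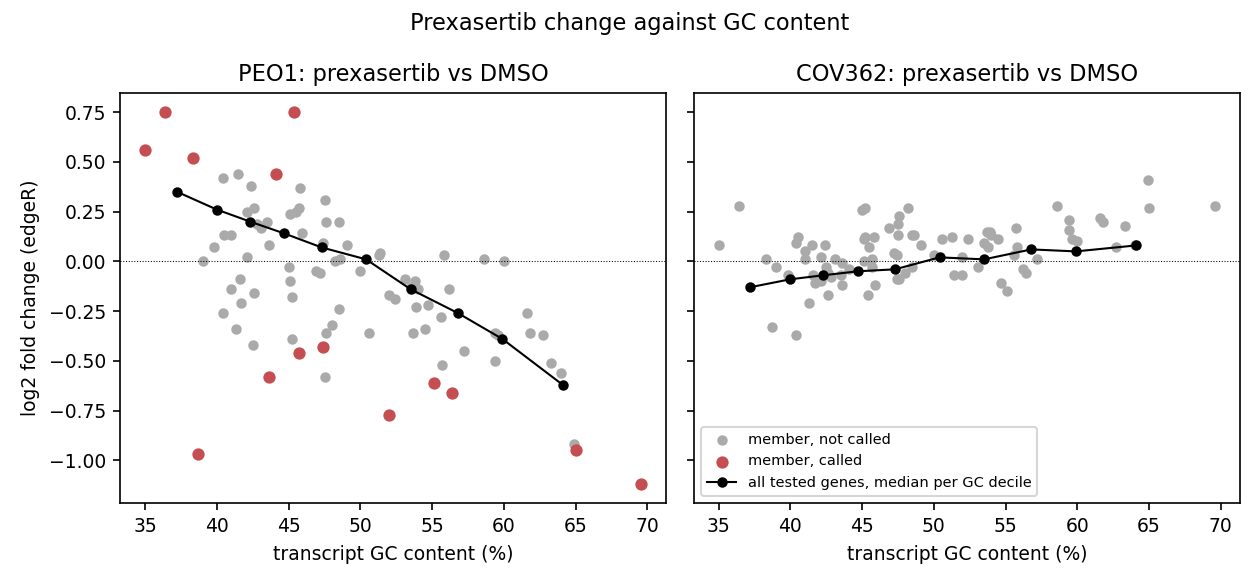
Log2 fold change with prexasertib against transcript GC content (%) for the members in PEO1 (left) and COV362 (right); red points were called, and the black line joins the medians of all tested genes in 10 classes of GC content. NDUFA4L2 is not drawn. In PEO1 the line falls from left to right, from 0.35 at the lowest GC content to −0.62 at the highest, with members on both sides of it, and ATP5E, at 38.7% GC, lies well below it.

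The genes around the chain in PEO1 were read from lists of the pathway. The counts below stand beside a background of 29.3% of all tested genes called, 14.7% higher and 14.6% lower. CYCS, the cytochrome c that carries electrons from complex III to IV, had 396, 420 and 425 CPM with prexasertib against 166, 207 and 186 CPM with DMSO. Its groups were far apart, with a change of 1.15 ± 0.13 (edgeR adjusted p = 4.61e-05). It belonged to a list of 16 inner membrane and carrier genes, of which 2 rose and 1 fell. Among 18 tested complex IV assembly genes, 5 rose (COX10, COX19, COA4, COA6, COA7) and 0 fell, and COX19, a copper-handling factor, changed most (1.08 ± 0.22). Of 9 other complex I assembly genes, TMEM126A rose (0.68 ± 0.15), while ACAD9 and FOXRED1 fell (−0.70 ± 0.12 and −0.54 ± 0.16). Of the assembly genes of the other complexes, 0 of 4 for complex II were called, and LYRM7 rose among 6 for complex III (0.58 ± 0.19) and ATPAF1 among 4 for complex V (0.48 ± 0.14). Of 17 citric acid cycle and pyruvate dehydrogenase genes 3 rose (IDH3A, DLST, PDHX) and 2 fell (IDH3G, PDHB), and of 9 genes of mitochondrial DNA expression 1 rose, C10orf2, which encodes the helicase Twinkle (0.69 ± 0.11). Of 76 mitochondrial ribosomal protein genes 7 rose and 1 fell, and of 83 cytosolic ones 1 rose and 1 fell. With the length and GC correction FOXRED1 (−0.27, edgeR adjusted p = 0.0722), LYRM7 (0.16, 0.463), IDH3A (0.20, 0.0854), PDHX (0.23, 0.0724) and IDH3G (−0.26, 0.109) lost their calls, and TMEM126A kept its own at 0.43.

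Among 10 tested regulators of respiratory genes in PEO1, 4 rose and 1 fell, where 29.3% of all tested genes were called. PPARGC1A, the coactivator PGC-1α, had 5.93, 8.85 and 5.19 CPM with prexasertib against 0, 0.38 and 0.33 CPM with DMSO. The groups did not overlap, and the change of 4.71 ± 0.56 (edgeR adjusted p = 6.15e-05) is set against almost no counts under DMSO. Its relative PPARGC1B fell by 0.66 on the log2 scale, with 12.3 ± 2.37 CPM under prexasertib and 19.3 ± 0.398 CPM under DMSO. GABPA, which encodes the DNA-binding subunit of GABP, had 22.4, 30.6 and 22.8 CPM with prexasertib against 11, 14.5 and 12.7 CPM with DMSO, although part of its exons lies opposite ATP5J, whose change was −0.09 ± 0.23. GABPA changed by 0.99 ± 0.24, or 0.57 with the length and GC correction. GABPB1 and YY1 rose by 0.43 and 0.37, of which GABPB1 lost its call under that correction (0.12, edgeR adjusted p = 0.61), and NRF1 was at 0.14 ± 0.13, not called. In COV362, 0 genes of any of these lists were called, where 0.828% of all tested genes were. PPARGC1A was there at 4.6 ± 1.81 CPM with prexasertib and 9.82 ± 3.03 CPM with DMSO.

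The difference between the drug changes of the lines, PEO1 minus COV362, was called for 0 of 88 members in edgeR's quasi-likelihood test, where 6.1% of all tested genes were called. At an unadjusted p under 0.05 there were 3 higher and 7 lower, where 1855 and 1795 of all 14498 tested genes were. DESeq2 called 4, of a background of 13.6%, and limma-voom 0, of a background of 6.09%. These counts are no excess over the background. ATP5D came nearest, at −1.40 ± 0.45 (edgeR adjusted p = 0.08), followed by SDHA at −0.46 ± 0.15 (0.0872) and NDUFA5 at 0.48 ± 0.17 (0.103). These came to −0.32, −0.20 and −0.19 with the length and GC correction, so that of NDUFA5 turned its direction. The lowest p of complex III was that of UQCR10 (−0.71 ± 0.35), and those of complex IV and the assembly factors were COX5B (−0.70 ± 0.38) and NDUFAF4 (0.47 ± 0.26). The difference uses the same libraries as both drug comparisons. Without the A libraries 1 member was lower, of a background of 7.7%. With the letter as a block 5 were higher and 22 lower, of a background of 29.1%, where the letters met the pairing criterion in COV362 and not in PEO1. With the length and GC correction NDUFB3 was higher (0.43) and ATP5C1, ATP5A1 and NDUFB9 lower (−0.54, −0.51 and −0.67), of a background of 8.81%. Among the genes of the lists, the difference was called for CYCS (0.83 ± 0.18), PPARGC1A (5.79 ± 0.70), TMEM126A (0.82 ± 0.22), ACAD9 (−0.63 ± 0.17) and the mitochondrial ribosomal protein genes MRPL42, MRPS18C and MRPS30 (0.74 ± 0.16, 0.65 ± 0.16 and 0.83 ± 0.22). With the length and GC correction CYCS (0.42, edgeR adjusted p = 0.0937), ACAD9 (−0.44, 0.0754), MRPL42 (0.38, 0.179) and MRPS18C (0.39, 0.0813) lost that call, and PPARGC1A, TMEM126A and MRPS30 kept it.

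More members were called between the lines than with the drug in either. In PEO1 DMSO against COV362 DMSO, 10 members were higher and 21 lower, where 57.7% of all tested genes were called, 29.1% higher and 28.6% lower. Their median was −0.15, against −0.01 for all genes. The counts are no excess over the background, and the direction leaned to lower levels in PEO1. Complex V stood lowest, with 2 of 17 higher, 7 lower and a median of −0.57. The letters met the pairing criterion here too, although C did not correlate best with its own letter. With the letter as a block 21 members were higher and 37 lower, of a background of 68.4%, with all 31 among them. Without the A libraries 18 were higher and 27 lower, of a background of 60.8%. With the length and GC correction 31 were higher and 26 lower, of a background of 65.1%, with a median of 0.03, and without COV362 DMSO A the median was 0.04, so the lean of the whole set toward lower levels in PEO1 did not hold under either.

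The c subunits form the ring through which protons pass, and 3 genes (ATP5G1, ATP5G2 and ATP5G3) are known to encode the same mature protein. All were lower in PEO1. ATP5G2 (chr12:53665160-53676728, minus strand) had 220, 212 and 197 TPM in PEO1 DMSO against 966, 777 and 798 TPM in COV362 DMSO. This was the strongest decrease of any member, at −2.26 ± 0.24 (edgeR adjusted p = 2.19e-06). ATP5G1 (chr17:48892786-48895870, plus strand) had 476, 431 and 394 TPM in PEO1 DMSO against 1030, 819 and 839 TPM in COV362 DMSO, at −1.29 ± 0.24 (edgeR adjusted p = 0.000445). ATP5G3 (chr2:175176258-175181762, minus strand) had 150, 150 and 148 TPM in PEO1 DMSO against 221, 236 and 225 TPM in COV362 DMSO, at −0.83 ± 0.13. Summed, the c genes reached 793 ± 53.5 TPM in PEO1 DMSO and 1970 ± 217 TPM in COV362 DMSO (SD, n = 3 each). ATP5G2 made up 26.4% ± 0.379 of that sum in PEO1 DMSO and 42.9% ± 0.557 in COV362 DMSO. The summed level under prexasertib was 679 ± 49.8 TPM in PEO1 and 1910 ± 207 TPM in COV362.

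Elsewhere in complex V the F1 genes diverged. ATP5C1 was at −1.09 ± 0.12 and ATP5B at −0.57 ± 0.12, while ATP5A1 was at 0.41 ± 0.13 (edgeR adjusted p = 0.013). ATP5A1 lost that call without PEO1 DMSO A or B or COV362 DMSO C (adjusted p at most 0.0619). ATP5J, the coupling factor F6 of the peripheral stalk, was at −1.22 ± 0.24 and ATP5I (e subunit) at −0.83 ± 0.25, against 0.93 ± 0.18 for ATP5L (g subunit). The exons of ATP5J share 48.8% of their length with GABPA on the opposite strand, which the unstranded kit cannot part, and GABPA was also lower in PEO1 DMSO (−1.23 ± 0.24).

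All 4 complex II genes were called, in opposite directions. SDHA had 266, 272 and 296 TPM in PEO1 DMSO against 116, 143 and 145 TPM in COV362 DMSO, and SDHD had 133, 186 and 195 TPM in PEO1 DMSO against 61.0, 116 and 91.8 TPM in COV362 DMSO. Both groups of each gene were apart, with log2 fold changes of 0.83 ± 0.11 for SDHA and 0.74 ± 0.16 for SDHD. SDHB had 174, 211 and 208 TPM in PEO1 DMSO against 240, 292 and 272 TPM in COV362 DMSO (−0.66 ± 0.11), and SDHC was at −0.79 ± 0.12. The summed level of the complex was 756 ± 79.3 TPM in PEO1 DMSO and 654 ± 95.1 TPM in COV362 DMSO, and the libraries of the groups overlapped. In CPM they did not, with sums of 706, 744 and 698 CPM in PEO1 DMSO against 686, 676 and 666 CPM in COV362 DMSO.

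In complex I, 3 of 37 were higher and 6 lower. NDUFV2, an iron-sulfur subunit at the NADH end, had 288, 288 and 249 TPM in PEO1 DMSO against 87.0, 90.5 and 84.3 TPM in COV362 DMSO. Its change of 1.44 ± 0.17 was the highest among the members (edgeR adjusted p = 6.33e-06). NDUFA10 and NDUFB6 were higher (0.88 ± 0.15 and 0.74 ± 0.18), and NDUFA5, NDUFB1, NDUFA12, NDUFV3 and NDUFB4 were among those lower (−0.87 to −0.46). In complex III, CYC1 had 227, 204 and 222 TPM in PEO1 DMSO against 484, 460 and 514 TPM in COV362 DMSO (−1.39 ± 0.21), and UQCRC1 was at −0.78 ± 0.18.

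In complex IV, COX6C was higher, with 792, 719 and 670 TPM in PEO1 DMSO against 292, 288 and 247 TPM in COV362 DMSO (1.17 ± 0.21). NDUFA4 was lower, with 191, 197 and 171 TPM in PEO1 DMSO against 401, 400 and 356 TPM in COV362 DMSO (−1.28 ± 0.18), as were COX7A2 (−0.93 ± 0.19) and COX6B1 (−0.75 ± 0.28). Among the assembly factors NDUFAF5 and NDUFAF4 were higher (1.04 ± 0.26 and 1.0 ± 0.19) and NDUFAF3 lower (−0.67 ± 0.26), the last with overlapping groups. Of the 31 calls 25 held when any 1 of the 6 DMSO libraries was left out. Besides ATP5A1, those lost were COX6B1 and NDUFB4 without COV362 DMSO A or PEO1 DMSO B or C (adjusted p at most 0.182 and 0.0813), NDUFB1 without COV362 DMSO A or PEO1 DMSO C (at most 0.0731), NDUFV3 without COV362 DMSO A or B or PEO1 DMSO B or C (at most 0.164), and NDUFAF3 without COV362 DMSO A or C or PEO1 DMSO B or C (at most 0.154).

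**Figure D4:**
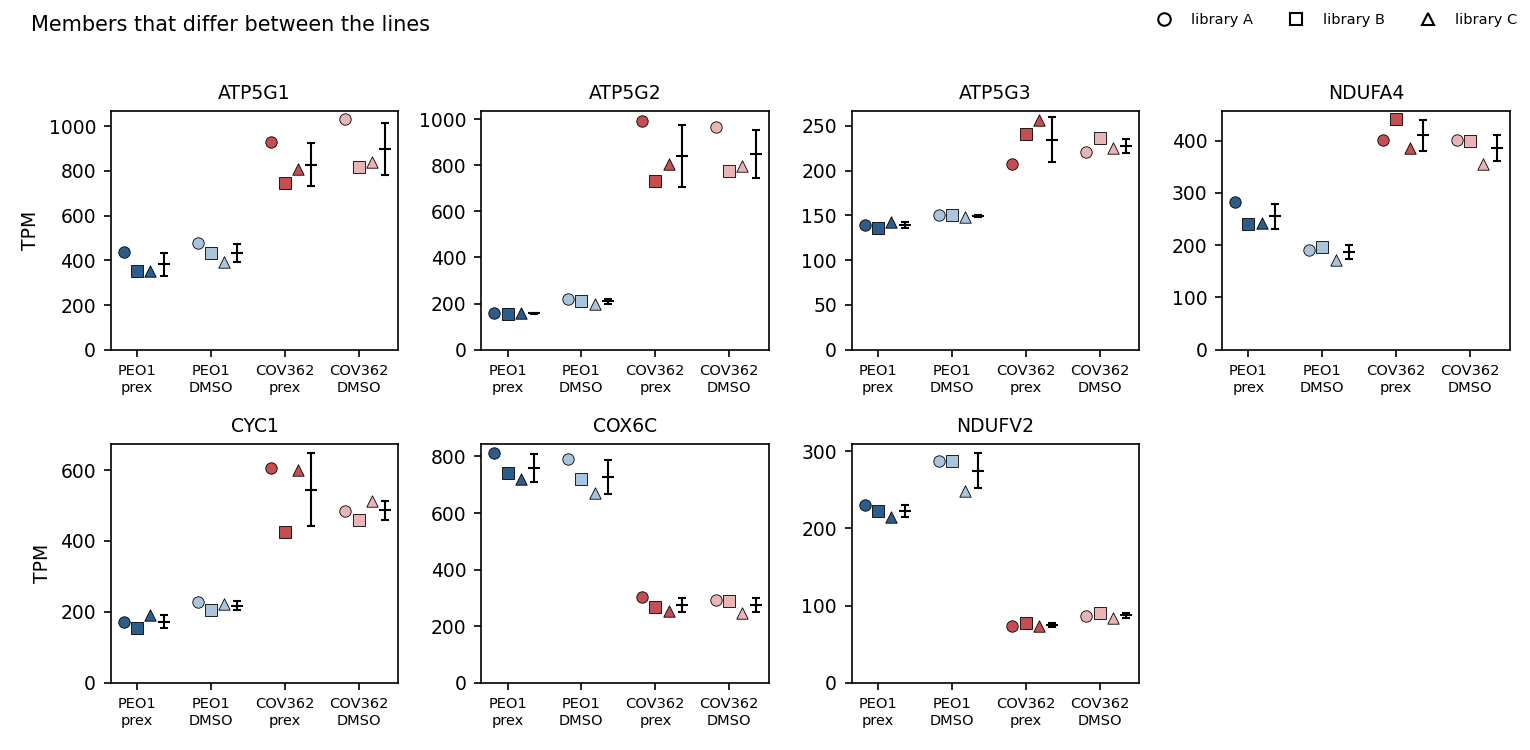
TPM of 7 members that differ between the lines in each library, for PEO1 and COV362 with prexasertib (dark) and DMSO (pale); marker shapes are the letters and bars the mean ± SD of 3 libraries. The c subunit genes, NDUFA4 and CYC1 lie lower in PEO1 in all libraries of either treatment, and COX6C and NDUFV2 lie higher.

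Members tended to differ between the lines in the direction of the genes around them. For each member the median log2 fold change of tested genes within 5 Mb that are not members was taken. Across the 88 members the Spearman correlation with that median was 0.72 and the Pearson correlation 0.75, and the sign was the same for 62. These are a description with no test, since members on a chromosome can share neighbours. No matching value over all tested genes is given here, so the pattern cannot be called particular to respiratory genes. Around NDUFV2 on chromosome 18 the median of 35 neighbours was 1.91, with 32 of them called higher in PEO1. Around ATP5J on chromosome 21 it was −1.38 over 22 neighbours, of which 15 were lower and 0 higher. CYC1 and COX6C, on the same chromosome, had opposite surroundings, at −1.13 over 62 neighbours and 1.49 over 42. SDHA had 0.90 over 18 neighbours and NDUFAF4 1.44 over 15, both in the direction of the gene itself. ATP5G2 and ATP5G1 stood apart from theirs, at −0.45 over 186 neighbours and −0.08 over 107. DNA copy number was not measured here, and its part in these differences was not tested.

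**Figure D5:**
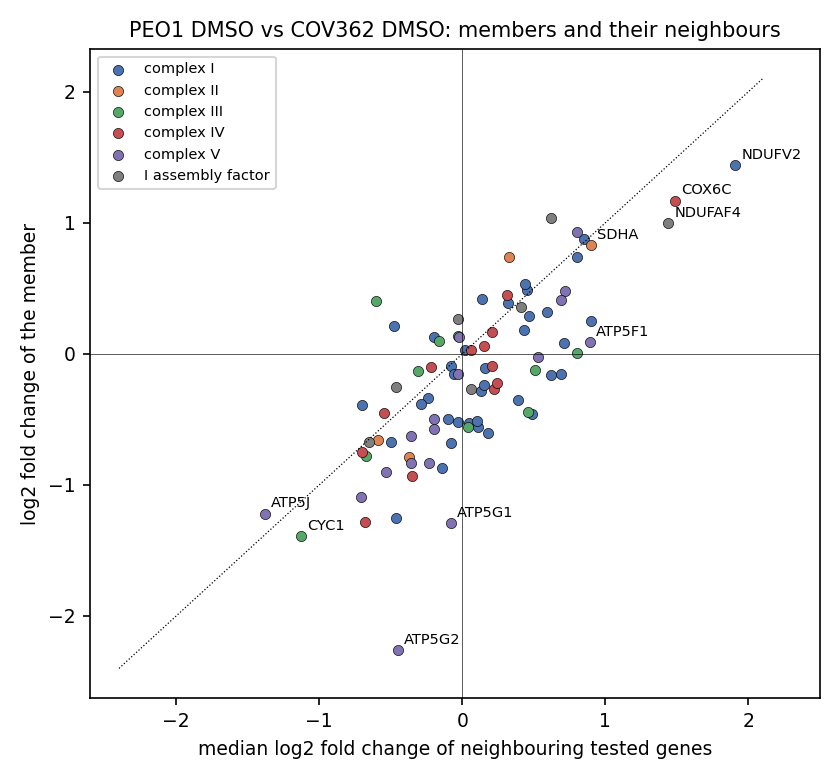
Log2 fold change of each member in PEO1 DMSO against COV362 DMSO, plotted against the median log2 fold change of the tested genes within 5 Mb of it; colours are complexes and the dotted line marks equal values. NDUFV2 and COX6C (upper right) and ATP5J and CYC1 (lower left) lie near the line, and ATP5G2 and ATP5G1 lie far below it.

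The other mitochondrial lists gave a frame for the line comparison. Of 76 mitochondrial ribosomal protein genes 7 were higher and 27 lower (median −0.28), and of 83 cytosolic ribosomal protein genes 5 were higher and 44 lower (median −0.68), of the background of 57.7% given above. Corrected for length and GC content, the medians were −0.11 and −0.49. With letters A, B and C matched that of the mitochondrial list was −0.43, 0.01 and −0.38. Both lists hold short genes, with median exon lengths of 1333 and 880 bases. Of 9 genes of mitochondrial DNA expression 1 was higher and 4 lower, with TFB1M, an RNA methyltransferase of the mitochondrial ribosome, at −2.01 ± 0.19 and TFB2M, a transcription factor of mitochondrial DNA, at 0.86 ± 0.12. Of 17 citric acid cycle and pyruvate dehydrogenase genes 1 was higher and 5 lower, led by PDHB, a subunit of pyruvate dehydrogenase (−1.44 ± 0.12). Of the 16 inner membrane and carrier genes 3 were higher and 6 lower, and CYCS was at −0.83 ± 0.13. Of the assembly genes, 1 was higher and 2 lower of 9 for complex I, 1 and 0 of 4 for complex II, 1 and 3 of 6 for complex III, 3 and 6 of 18 for complex IV, and 0 and 1 of 4 for complex V. Of the 10 regulators 2 were higher and 3 lower. PPARGC1A was lower in PEO1 DMSO, at 0.237 ± 0.206 CPM against 9.82 ± 3.03 CPM in COV362 DMSO.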

How the data were processed

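RNA from 12 libraries was analysed, with 3 for each combination of line and treatment. The submitters' processing notes name hg38, STAR, Subread and featureCounts 1.4.6, and their roles and order are not given in the sources used here. The authors deposited unnormalized counts for every gene, with exon coordinates and exon length, per the file headers. Per the labels' protocols, RNA was purified on columns and libraries were made by TruSeq RNA Library Prep Kit v2. That kit keeps no strand, so overlapping genes on opposite strands cannot be told apart, and nothing says how reads that match several places were counted.

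From the counts, CPM with TMM factors and TPM over all 26485 genes were computed here. Genes passing filterByExpr (minimum count 10, minimum total 15) were fitted with edgeR 4.0.16 under R 4.3.3 by quasi-likelihood, in 1 fit of 4 group means (8 residual degrees of freedom), with BH adjustment over all 14498 tested genes and a threshold of 0.05. Errors of log2 fold changes are SEs from that fit. The scripts were tested on simulated counts. The replicate letters were taken to pair samples where every letter's deviations from the group means correlated above 0.1 across genes. They did for prexasertib and DMSO in COV362 (0.41, 0.42 and 0.13) and for the DMSO groups of the lines (0.35, 0.16 and 0.15). In both of these comparisons A and B correlated best with their own letter and C did not. The length and GC correction removed a smooth trend per library, and 94.4% of tested genes, including all 88 members, had a GC value. DESeq2 1.42.0 and limma 3.58.1 served as alternatives.

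The members and gene lists were chosen with earlier results of these data known. Named in each comparison were, per complex, up to 2 called members at either end of the log2 fold changes, or else the lowest-p member where a complex had no call. A fixed set was named as well, made up of core subunits, NDUFA4, NDUFAB1, COX7A2L and the alternative subunits known from other tissues. The lists were assembly factors of each complex, inner membrane and carrier genes, citric acid cycle genes, mitochondrial and cytosolic ribosomal proteins, genes of mitochondrial DNA expression and regulators. Some genes that these rules name are not reported here.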

Additional observations from a re-analysis of the deposited data

How the results depend on the processing

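In COV362 with prexasertib, the median of the members was −0.05 with the length correction or the length and GC correction, each with or without the replicate block. With the block added, correction for length gave 3 lower (10.4% of all genes called), and correction for length and GC gave 2 higher and 8 lower (12.5%). Leaving out single COV362 libraries gave medians of −0.11 to 0.24. UQCRHL came to 0.00 with the length correction and the block.

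In PEO1 with prexasertib, the members higher and lower numbered 14 and 30 with the replicate block (47.8% of all genes called), 9 and 19 with the length correction (36%), 19 and 32 with that and the block (49.8%), 4 and 17 after correcting for length and GC (35.1%), and 12 and 25 when the block joined it (46.8%). There were 8 higher without the A libraries (33.4% of all genes called), 3 with RLE size factors (29.8%) and 3 with no filter (20.2%). Against a 1.2-fold minimum 2 were higher (20.9%), and at an adjusted p under 0.01 also 2 (16%). The lower ones were 4 against the minimum fold, 2 at 0.01 and 20 with a fit of the PEO1 libraries alone (42.2%). Leaving out single PEO1 libraries gave 1 to 3 higher and 4 to 8 lower (20.3% to 22.7%), with medians of −0.27 to −0.05. Leaving out single COV362 libraries, which are not part of the contrast itself, gave 3 to 5 higher and 6 to 12 lower (26.3% to 34%).

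For the difference between the drug changes, the higher and lower numbered 5 and 22 with the block (29.1%), 2 and 1 with the length correction (11.4%), 15 and 19 with that and the block (30.5%), 1 and 3 after correcting for length and GC (8.81%), and 6 and 11 when the block joined it (21.8%). There were 2 lower with no filter (4.5%), 1 without the A libraries (7.7%) and 4 in DESeq2 (13.6%). Without single libraries 0 to 5 were lower (2.19% to 11.8%), with medians of −0.39 to 0.02. Of these, 2 were lower without COV362 DMSO A (8.57%) and 5 without COV362 prexasertib B (11.8%).

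Between the lines, the higher and lower numbered 21 and 37 with the block (68.4%), 34 and 34 with the length correction and the block (69.7%), and 37 and 34 with GC added to that correction (71.2%). The higher were 16 with library totals alone (56.6%), 25 with the length correction (61.9%), 31 with the length and GC correction (65.1%) and 18 without the A libraries (60.8%). Leaving out single libraries gave 9 to 15 higher and 16 to 26 lower (50.4% to 59.8%), with medians of −0.29 to 0.04.

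Some single genes changed sign, and the ranges without single libraries here cover those of the groups compared. In PEO1 with prexasertib SDHB was at −0.03 with RLE factors, DESeq2 or no A libraries, −0.05 with no filter, −0.02 and −0.01 with the length and GC correction without and with the block, and −0.07 to 0.01 without single libraries. ATP5B was at −0.01 with RLE factors or DESeq2, −0.03 with no filter and −0.10 to 0.02 without single libraries, and NDUFA4L2 at −0.01 to 1.48. With the length and GC correction, with or without the block, NDUFV1 was at 0.03, CYC1 at 0.14 and UQCRC1 at 0.04. The difference for NDUFA5 was −0.19 and −0.21 with that correction, without and with the block. Between the lines COX5B was at 0.01 with library totals, 0.06 without the A libraries, 0.19 and 0.20 with the length correction, 0.24 and 0.25 with the length and GC correction (each without and with the block), and −0.26 to 0.20 without single libraries. UQCRFS1 was at 0.04 with both corrections, with or without the block, and −0.26 to 0.05 without single libraries. NDUFA4L2 was at 0.02 and 0.01 with the length and the length and GC correction in the block, and −1.18 to 0.76 without single libraries, where COX4I1 ran from −0.10 to 0.28 and COX7A2L from −0.06 to 0.10. The causes of these shifts were not tested.

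The letters met the pairing criterion neither in PEO1 (correlations of 0.30, 0.17 and 0.081, with A and C but not B correlating best with their own letter) nor between the prexasertib groups (0.27, 0.35 and 0.078), so the block counts there describe a shared letter only. Of the single-gene values under alternatives, 1110 kept sign and side of the threshold, 77 gained a call, 70 lost one and 51 changed sign. NDUFA4L2 had at most 18 counts in any library. With 3 libraries a group, the median SE of a member was 0.21 on the log2 scale for either drug change.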

Other observations

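Of the 8 rows with matching names that were set aside, the readthrough rows NDUFC2-KCTD14 and ATP5J2-PTCD1 had 0 counts in every library, so the counts of NDUFC2 and ATP5J2 were deposited without any assigned to these readthroughs. The pseudogene rows ATP5EP2, NDUFAF4P1 and UQCRBP1 reached at most 0.385, 0.47 and 0.13 CPM. The antisense row NDUFV2-AS1 had 1.17, 0.879 and 1.15 CPM in PEO1 with prexasertib and 0.653, 0.76 and 0.44 CPM in PEO1 with DMSO, against 0 CPM in every COV362 library with prexasertib and 0.363, 0.219 and 0 CPM in COV362 with DMSO. Between the DMSO groups its change was 1.79 ± 0.78 and not called (edgeR adjusted p = 0.0674), and without strand the reads of an antisense row and its partner cannot be told apart. NDUFB2-AS1, which overlaps 28.3% of the exon length of NDUFB2, ranged from 0.55 to 1.54 CPM over the 12 libraries.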
